A study of Mus musculus with 18 samples.

Results

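The major histocompatibility complex (MHC) of the mouse is a stretch of chromosome 17 in which the class I and class II genes, whose products show peptides to T cells, stand among many genes that do other work. The genes treated here are those others: probes that the deposited table places on chromosome 17 between 33.5 and 37.5 Mb, with symbols that do not begin with H2-, Tap, Psm or Cyp, and with a signal above the negative controls (detection p-value under 0.05) on at least 4 of 18 arrays. Of 45281 probes in the table and 263 in the window, the symbols left 208, of which 142 passed the detection limit. These 142 probes belong to 98 genes, of 15757 genes with a tested probe in the whole table, and 118 of them were detected on all 18 arrays. The rule used position, symbol and detection. A probe could pass through some of the groups alone, as Myo1f and Trim10 did through those with DSS. Dim C4b probes could pass through a single group. The rule is therefore not free of group differences for the dim members.

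The arrays were Illumina MouseWG-6 BeadChips, whose beads each carry a probe of 50 bases. RNA came from colon epithelial cells, sorted as EpCAM-positive cells without the blood cell markers CD45, CD3 and F4/80, of wild-type (WT) mice and of mice without Mbd2 in any cell (Mbd2KO), a protein that binds methylated CpG dinucleotides and represses genes. Mice of either genotype were untreated (Naive_WT and Naive_KO) or drank 2% dextran sulphate sodium (DSS_WT and DSS_KO), which damages the epithelium and brings on colitis, and all were on a C57BL/6 background. Each group had 4 samples once arrays labelled 4R and 5R were taken as repeats of DSS_WT 4 and DSS_KO 5 and averaged with them, although the labels do not say what R stands for and the study's own n for these cells with DSS is larger, and a sample may pool several mice, whose ages are not given by group in the sources used here. Where a fold change is given it is on the log2 scale of the normalised signal, and "called" means an adjusted p from limma under 0.01 together with a log2 fold change of at least 1 in either direction.

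Between the class I and class II genes lies the class III region, which holds no presentation genes but the complement components C2, factor B and C4, the cytokines Tnf and Ltb, a pair of heat shock protein 70 genes and a cluster of Ly6 surface proteins. Other neighbours are chromatin and housekeeping genes, a row of TRIM ubiquitin ligases, and Ubd, a ubiquitin-like modifier that marks proteins for the proteasome. Interferon-gamma is known to raise presentation genes, C2 and Ubd in epithelium. In the comparison of genotypes the question was whether the genes that stand among the presentation genes moved with them.

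Some facts of the series bear on what follows. Arrays detected 18851 to 20618 probes, and 127 to 138 of the 142. The single Mbd2 probe of the table was detected on 0 of 18 arrays, so it could not check the genotype labels. All 9 epithelial markers were detected, at a mean log2 signal of 12.1 to 12.4 in all samples. The signal of 5′ probes relative to 3′ probes on the same transcript, taken over transcripts outside the window and centred, was lowest in DSS_WT replicates 2 and 4, at -0.39 and -0.24, against 0.05 to 0.10 in DSS_KO. The other DSS_WT samples were at 0.08 and -0.05, and Naive_KO replicate 15 was highest, at 0.27. The difference of this measure between DSS_KO and DSS_WT was 0.23 (exact permutation test, two-sided, p = 0.0857, 0.343 after adjustment over 4 contrasts), and the smallest p that 4 samples against 4 allow is 0.0286.

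With DSS, 10 of the 142 probes were higher in Mbd2KO and 0 were lower, or 7.04%, against 0.862% of all 21938 tested probes, 0.501% higher and 0.36% lower. Without DSS, 5 were higher and 0 lower, or 3.52%, against 0.656%, 0.401% higher and 0.255% lower. However, 6 of the 142 probes are MHC genes that the table lists under other names, and these gave 5 of the 10 calls with DSS and 2 of the 5 without. Of the 136 probes that are no MHC gene, 5 were called with DSS (3.68%) and 3 without (2.21%), all higher in Mbd2KO. The 5 include overlapping probes of C4b, and with 1 probe per gene, the brightest, 3 of 93 genes were called in each comparison. Of the 36 tested probes with H2-, Tap or Psm symbols in the same window, 18 and 16 were called, again all higher. The counts with DSS rested on several libraries: without DSS_WT replicate 2, 3 of the 142 probes and 3 of the 36 were called, while over all tested probes the calls went from 189 to 32 higher and 22 lower. With all 18 arrays as separate samples, 14 of the 142 and 24 of the 36 were called with DSS, and over all probes 229 higher and 191 lower. With the 5′ to 3′ measure as a covariate, chosen after seeing the data, 0 of the 142 were called with DSS, and far fewer of the 36 and of all probes, as given further on.

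The bulk of the neighbouring genes stood close to 0. The median log2 fold change of the 136 probes was 0.08 with DSS and 0.09 without, beside -0.00 for all tested probes in both comparisons and 1.53 and 1.13 for the H2-, Tap and Psm probes. At an adjusted p under 0.05, whatever the fold change, 19 of the 136 differed with DSS (14.0%), 15 higher and 4 lower, against 5.63% of all tested probes, 2.46% higher and 3.17% lower. Without DSS it was 10 (7.35%), 8 higher and 2 lower, against 5.19%, 2.43% higher and 2.77% lower. The values of DSS_KO and DSS_WT did not overlap for 33 of the 136 probes (24.3%), 26 of them higher and 7 lower, against 14.7% of all, 6.43% higher and 8.29% lower. Those of Naive_KO and Naive_WT did not overlap for 20 (14.7%), 19 higher and 1 lower, against 12.3%, 6.71% higher and 5.55% lower. No probe of the 208 was detected on all 9 arrays of one genotype and on none of the other.

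**Figure D1:**
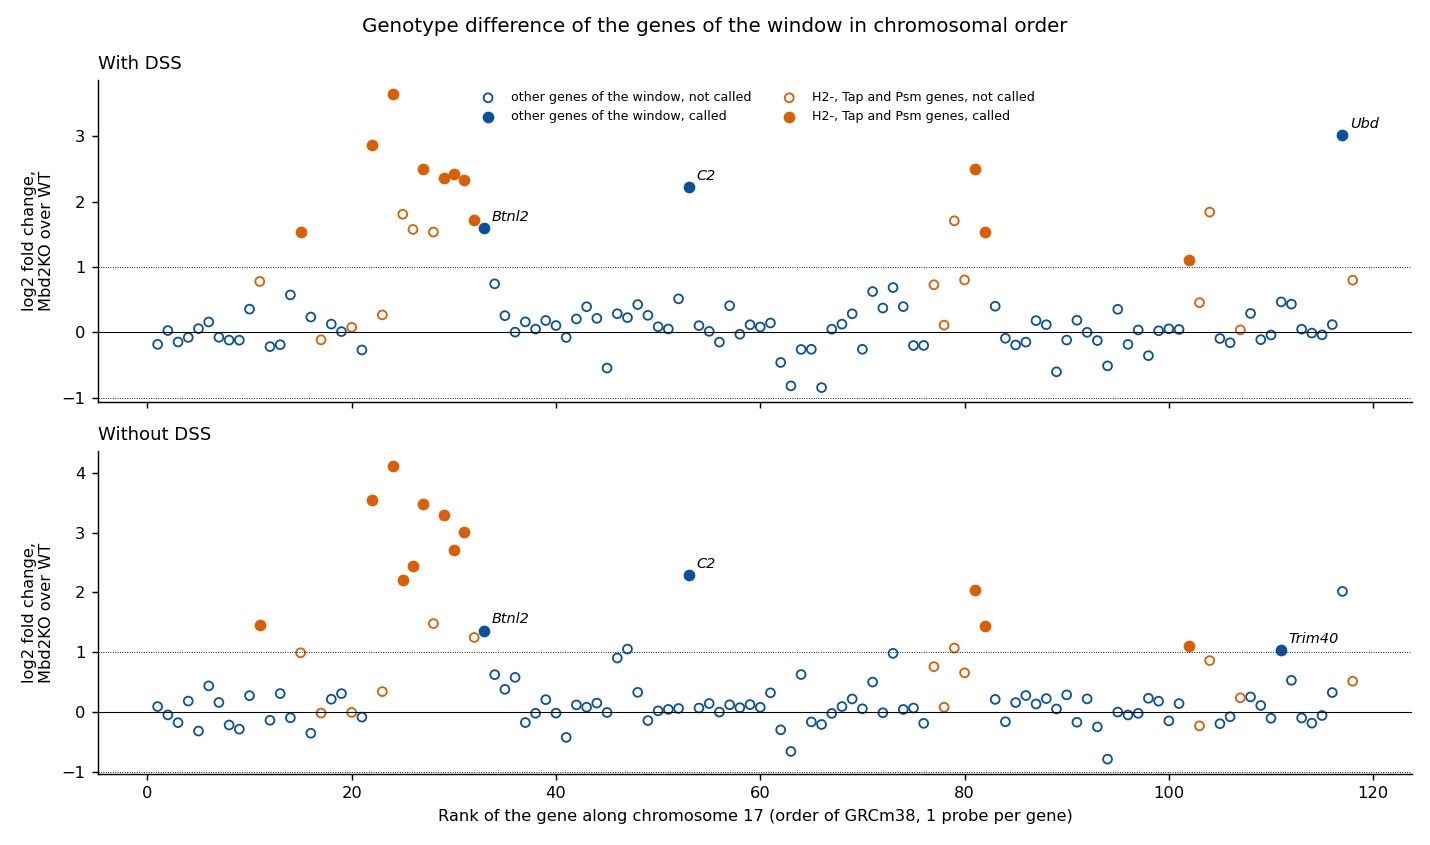
Log2 fold change of Mbd2KO over WT with DSS (top) and without DSS (bottom) for 118 genes of the window, 1 probe per gene (the brightest), against their rank along chromosome 17; filled points were called by limma and dotted lines mark the fold limit of 1. Filled orange points (H2-, Tap and Psm genes) reach 4.11, and most of the other genes (blue) stay near 0, with Btnl2, C2, Ubd and Trim40 as the called exceptions.

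The order of genes was taken from the assembly GRCm38, since the positions in the table mix at least 2 builds: against the table, GRCm38 puts the gene of 131 of the 140 matched members at a median -138 kb and that of the other 9 at a median 394 kb. Along this order stood 118 tested genes, 26 with H2-, Tap or Psm symbols and 92 others. Of the 26, 16 had a genotype difference that was called in at least 1 of the 2 comparisons, on any of their probes. The 9 genes directly next to a called presentation gene were Daxx, Rgl2, B3galt4, Ring1, Brd2, Btnl2, Pou5f1, Gnl1 and Rpp21. Of the called presentation genes beside them, Tapbp was not called with DSS, and H2-K1, H2-Eb2 and H2-T10 were not called without it. The median log2 fold change of the 9 genes was 0.23 with DSS and -0.09 without, and Btnl2 was the 1 gene of the 9 that was called (on the probe plotted, as for the counts that follow). An unadjusted p under 0.05 was reached by 5 of the 9 with DSS and 2 without, beside 4862 and 5010 of all 21938 probes, and an adjusted p under 0.05 by 2 and 1. Of 18 genes 2 to 4 places away, 0 were called by limma in either comparison, with 3 and 7 at an unadjusted p under 0.05, and medians of -0.08 and 0.20. Of 65 genes 5 or more places away, 2 were called in each comparison (of all probes, 0.862% and 0.656%), with 19 and 16 at an unadjusted p under 0.05 and medians of 0.08 and 0.07. C4b, 14 places away, was called with DSS on other probes than the one plotted.

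The class I gene H2-K1 and the class II gene H2-DMa give examples. H2-K1 was higher in Mbd2KO with DSS by 1.53 (adjusted p = 0.0068). Beside it, the chromatin protein gene Ring1 differed by 0.23 (SE 0.20, adjusted p = 0.53) and the galactosyltransferase gene B3galt4 by 0.57 (SE 0.16, adjusted p = 0.049). Next to H2-DMa, which was higher by 2.87 (adjusted p = 0.0013), the bromodomain protein gene Brd2 differed by -0.27 on its brightest probe (SE 0.15, adjusted p = 0.30). Its other 4 probes ran from -0.22 to 0.54, and the probe at 0.54 (adjusted p = 0.018), detected on no DSS_WT array and on 3 of 5 DSS_KO arrays, leaves a bound of at least 1.23-fold. Daxx, a histone chaperone gene beside Tapbp, differed by 0.35 with DSS (adjusted p = 0.11) and 0.27 without (adjusted p = 0.21).

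Ubd had the largest genotype difference of the 142 probes with DSS, and C2 the largest without it. The log2 signal of Ubd was 7.60, 6.30, 6.99 and 6.57 in DSS_WT and 10.64, 9.18, 10.26 and 9.46 in DSS_KO. In naive mice it was 5.98, 5.40, 6.02 and 5.90 in WT and 8.91, 7.06, 8.88 and 6.51 in Mbd2KO. The genotypes did not overlap under either condition, and the naive Mbd2KO samples split into a high and a low pair. The difference was 3.02 with DSS (SE 0.47, an 8.10-fold rise, adjusted p = 0.0024) and 2.02 without DSS (adjusted p = 0.022, short of the call). The probe lies on chromosome 17 at 37332650 to 37332699 of the table's coordinates. Ubd stands 13 genes from the nearest called presentation gene, next to H2-M3, which was higher by 0.80 with DSS (adjusted p = 0.0098, under the fold limit).

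C2, the complement component that is cut to form the C3 convertase of the classical pathway, rose under both conditions. Its log2 signal was 7.44, 7.26, 7.24 and 7.09 in DSS_WT and 9.94, 8.70, 9.67 and 9.58 in DSS_KO, and 6.19, 6.47, 6.55 and 6.26 in Naive_WT and 9.53, 7.94, 9.56 and 7.62 in Naive_KO. All 8 Mbd2KO samples were above all 8 WT samples. The differences were 2.22 with DSS (SE 0.36, 4.65-fold, adjusted p = 0.0030) and 2.29 without (4.90-fold, adjusted p = 0.0021). Within Naive_KO the replicates 13 and 15 were high and 14 and 16 low, the same division as for Ubd. C2 stands in class III, 21 genes from the nearest called presentation gene, and its neighbours Cfb and Ehmt2 differed by 0.51 (adjusted p = 0.045) and 0.10 (adjusted p = 0.57) with DSS.

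Btnl2, a butyrophilin-like surface protein known to restrain T cells, lies at the border of the class II region next to H2-Eb2. Its log2 signal was 5.42, 5.26, 4.83 and 5.05 in DSS_WT, 7.24, 6.35, 7.10 and 6.27 in DSS_KO, 4.50, 4.45, 4.72 and 4.59 in Naive_WT and 6.62, 5.57, 5.64 and 5.87 in Naive_KO. It was detected on all 9 Mbd2KO arrays, on 4 of 5 DSS_WT arrays and on 0 of 4 Naive_WT arrays. With DSS it was higher by 1.60 (SE 0.24, 3.03-fold, adjusted p = 0.0019). Without DSS it was at least 2.04-fold higher (adjusted p = 0.0043), a bound set against the lowest signal detected on each Naive_WT array, with group means of 5.93 and 4.57. The next gene, BC051142, was higher by 0.74 with DSS (adjusted p = 0.032) and 0.62 without (adjusted p = 0.069), and Btnl7-ps and Notch4 beyond it by 0.25 and 0.00 with DSS (adjusted p = 0.37 and 0.99) and by 0.38 and 0.58 without (adjusted p = 0.17 and 0.11).

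Trim40, a TRIM protein that is made in the gut epithelium, was called for genotype without DSS. On its probe with the higher signal it read 6.81, 6.75, 6.99 and 7.33 in Naive_WT and 8.25, 7.63, 8.10 and 8.06 in Naive_KO, groups that did not overlap, with a difference of 1.04 (SE 0.17, adjusted p = 0.0024). With DSS the difference was 0.47 (adjusted p = 0.11). The other Trim40 probe gave 0.78 without DSS (adjusted p = 0.054) and 0.67 with it (adjusted p = 0.086). Trim31, beside it, was higher by 0.53 and 0.43 (adjusted p = 0.051 and 0.10), and Trim15, Trim10, Trim26 and Trim39 differed by -0.16 to 0.29 in both comparisons, none at an adjusted p under 0.05.

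**Figure D2:**
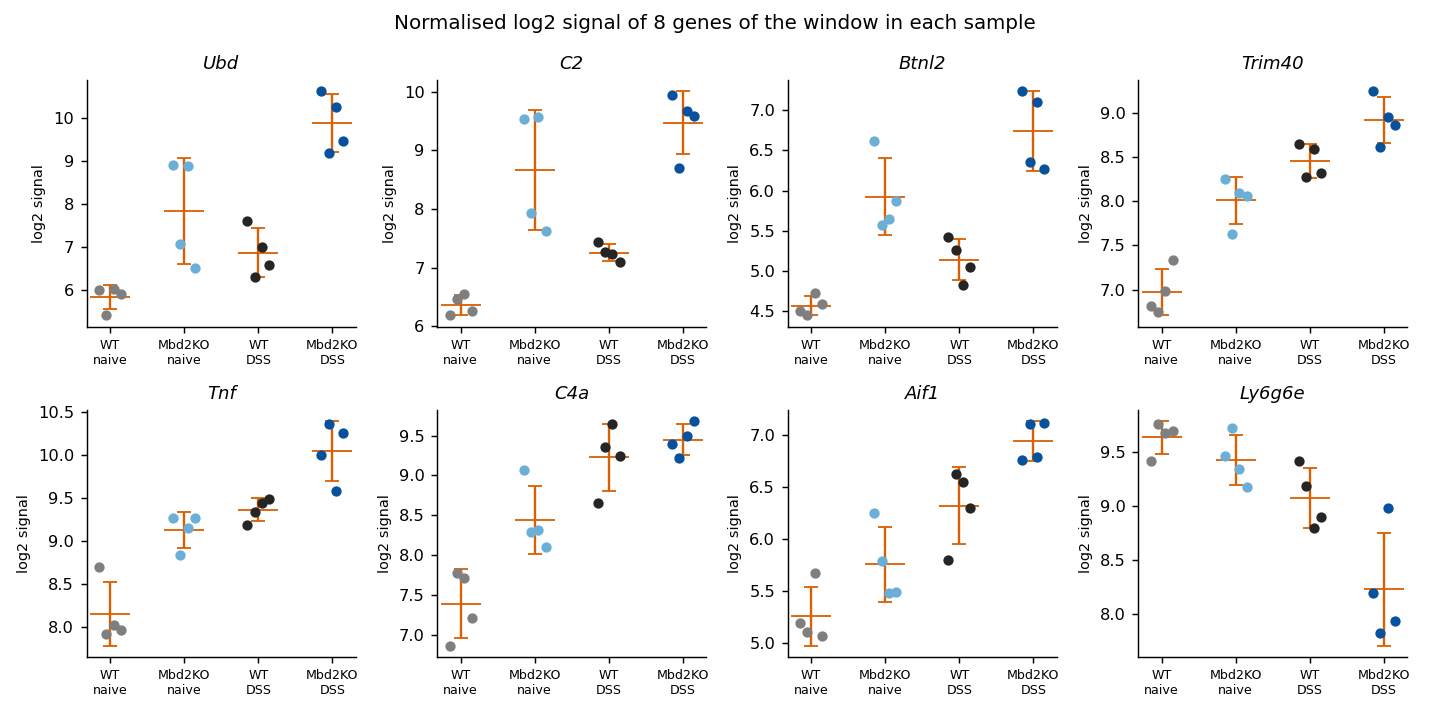
Normalised log2 signal of 8 genes in each of 16 samples, by group; points are samples, the orange line is the mean and the bar the SD (n = 4). In C2, Ubd and Btnl2 the Mbd2KO samples stand above the WT samples under the same condition, whereas C4a and Aif1 stand higher with DSS in both genotypes and Ly6g6e lower with DSS in Mbd2KO.

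Mbd2 binds methylated CpG, so the promoters of the called genes are shown. RefSeq's table (GRCm38.p6, 300 bases that end 50 bases past the start of transcription) holds a promoter for 76 of the 93 genes that are no MHC gene, and for 3 of the 5 that were called for genotype: Ubd (chr17:37193642-37193941, plus strand), Btnl2 (chr17:34354572-34354871, plus strand) and Trim40 (chr17:36890076-36890375, minus strand). The promoter of Hspa1a (chr17:34972107-34972406, minus strand) is added from class III as a promoter with more CpG. Capitals mark CpG dinucleotides.
Ubd: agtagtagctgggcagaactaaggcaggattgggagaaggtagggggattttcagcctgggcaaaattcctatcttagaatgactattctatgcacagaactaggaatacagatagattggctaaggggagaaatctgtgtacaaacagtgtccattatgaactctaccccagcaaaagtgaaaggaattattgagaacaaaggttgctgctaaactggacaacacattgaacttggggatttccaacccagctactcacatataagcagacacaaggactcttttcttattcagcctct
Btnl2: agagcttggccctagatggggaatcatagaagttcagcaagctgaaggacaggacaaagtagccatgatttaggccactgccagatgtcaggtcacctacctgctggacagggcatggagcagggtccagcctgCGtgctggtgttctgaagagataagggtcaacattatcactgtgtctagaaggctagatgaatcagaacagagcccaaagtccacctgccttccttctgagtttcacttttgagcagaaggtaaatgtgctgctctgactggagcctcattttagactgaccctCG
Trim40: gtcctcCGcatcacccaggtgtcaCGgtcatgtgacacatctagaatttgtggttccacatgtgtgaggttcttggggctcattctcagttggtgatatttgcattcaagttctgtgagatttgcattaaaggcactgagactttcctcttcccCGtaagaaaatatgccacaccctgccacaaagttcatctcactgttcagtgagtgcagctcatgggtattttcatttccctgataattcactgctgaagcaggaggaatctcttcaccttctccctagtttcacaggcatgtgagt
Hspa1a: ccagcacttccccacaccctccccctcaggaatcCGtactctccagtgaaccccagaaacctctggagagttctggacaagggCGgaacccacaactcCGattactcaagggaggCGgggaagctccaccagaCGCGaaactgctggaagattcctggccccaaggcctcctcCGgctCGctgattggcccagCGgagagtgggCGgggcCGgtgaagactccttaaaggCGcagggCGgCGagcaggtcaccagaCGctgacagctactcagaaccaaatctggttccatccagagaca

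The Ubd promoter held 0 CpG, that of Btnl2 2, that of Trim40 3 and that of Hspa1a 15. Where a gene has several promoters in the table, the one with most CpG was counted. Over the 76 genes the median was 19 and the highest count 47, and over all 27025 genes of the table, counted the same way, the median was 8. At most 3 CpG were found in 7 of the 76 genes (9.21%), namely Ubd, Aif1, Btnl2, Ly6g6c, Trim10, Trim31 and Trim40, and in 30.3% of all genes. The limit of 3 is the count of the called gene with most CpG, so that all 3 called genes lie within it by construction. Beside them, 4 genes of 3 CpG or fewer were not called, and this is a description of 76 promoters without a test.

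**Figure D3:**
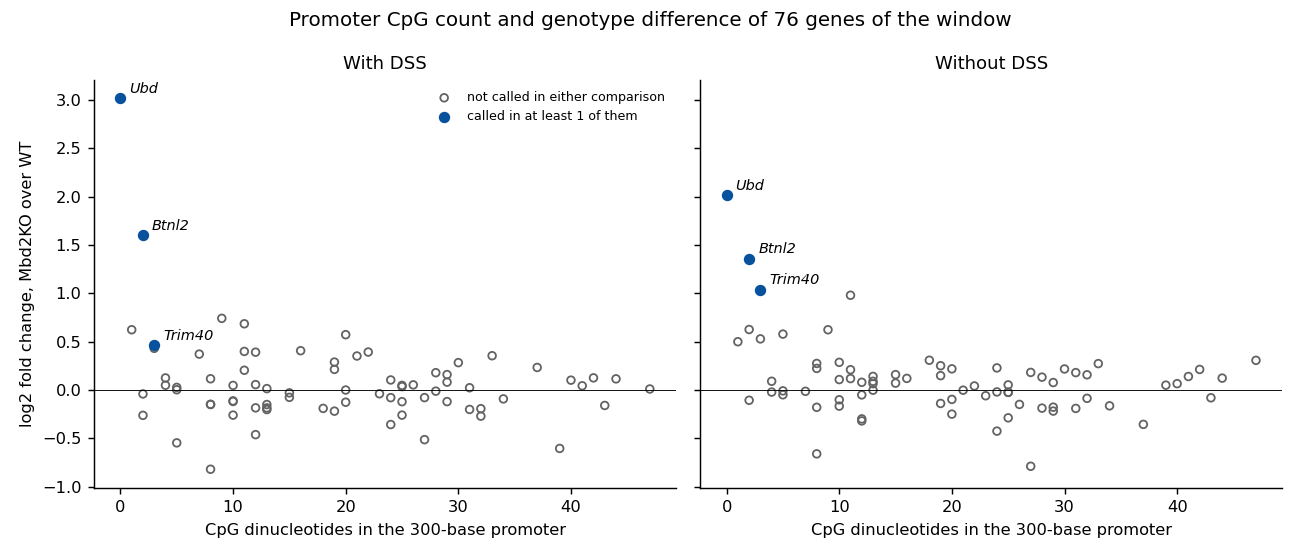
Log2 fold change of Mbd2KO over WT against the number of CpG dinucleotides in the 300-base promoter for 76 genes, with DSS (left) and without (right), each gene by its brightest probe. The 3 called genes have 0, 2 and 3 CpG, and genes with more than 3 CpG spread around 0.

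Of the 6 probes of MHC genes under other names, 5 were called with DSS and 2 without. A class I gene listed as EG630499 and now named H2-K2 was higher by 1.96 with DSS and 1.79 without (adjusted p = 0.0019 and 0.0027) on its probe with the larger difference, and by 1.07 and 0.99 on the other (adjusted p = 0.0027 and 0.0041). Gm9574 was higher by 1.15 and 1.14 (adjusted p = 0.0024 and 0.0020). LOC547343 rose by 1.22 with DSS (adjusted p = 0.0038) and Gm8909 by 2.03 (adjusted p = 0.0060). The probe of A130038H09Rik, now H2-Eb2, was close to background on most arrays and differed by 0.30 (adjusted p = 0.25) with DSS. A stretch of 34 bases of the LOC547343 probe also occurs in a probe of H2-D1, and 24 bases of a H2-K2 probe in probes of H2-T23, so the assignment to a class I gene is uncertain.

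Heat shock, the TNF locus and the remaining class III genes gave smaller or divided answers to the loss of Mbd2. Tnf, the inflammatory cytokine, was higher in Mbd2KO by 0.98 without DSS (adjusted p = 0.0077) and by 0.69 with it (adjusted p = 0.040) on 1 probe, and by 1.03 and 0.79 (adjusted p = 0.021 and 0.060) on the other. Its log2 signal on the first was 8.70, 7.92, 8.02 and 7.96 in Naive_WT and 9.27, 8.83, 9.15 and 9.27 in Naive_KO. None of these reached the call, and the groups did not overlap on that probe under either condition. Beside this, 7 of 8 myeloid markers were higher in Mbd2KO in either comparison, by a median of 0.68 without DSS (1 at an adjusted p under 0.05) and 0.36 with it, where limma called 0 and 0 had an unadjusted p under 0.05. Their part in the Tnf difference was not tested. Ltb, Nfkbil1, Aif1, Atp6v1g2 and Ddx39b, the other genes of that cluster, differed by -0.20 to 0.62 with DSS on their brightest probes, none at an adjusted p under 0.05.

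Some members were lower in Mbd2KO, none of them called over all samples. The megakaryocyte receptor gene Mpig6b read 6.40, 6.21, 6.09 and 5.98 in DSS_WT and 5.61, 5.41, 5.27 and 5.12 in DSS_KO, lower by 0.82 (adjusted p = 0.016), and without DSS the difference was -0.66 (adjusted p = 0.046). Ppp1r18, a phosphatase-binding protein gene, differed by -0.79 without DSS (adjusted p = 0.048) and by -0.51 with it (adjusted p = 0.18). Ddr1, a collagen receptor kinase, read 10.49, 10.96, 10.70 and 10.77 in DSS_WT and 10.04, 10.28, 10.02 and 10.17 in DSS_KO, with a difference of -0.60 (adjusted p = 0.0094) that stays under the fold limit. The 3 probes of tenascin gene Tnxb ran from -0.93 (adjusted p = 0.027) to -0.53 with DSS, and the brightest was at -0.55 (adjusted p = 0.17). The probes of Ly6g6e, a Ly6 surface protein gene, differed by -0.85 and -0.78 with DSS (adjusted p = 0.028 and 0.065). Without DSS_KO replicate 7 both Ly6g6e probes were called, at -1.10 and -1.07 (adjusted p = 0.0029 and 0.0055). Beside these, the mean log2 signal of 7 smooth muscle markers was 8.41 in DSS_WT and 7.46 in DSS_KO, that of 8 endothelial markers 6.76 and 6.03, and that of 6 fibroblast markers 8.67 and 8.05. In Naive_WT and Naive_KO the means were 8.13 and 7.74 for smooth muscle, 6.33 and 6.02 for endothelial and 7.77 and 7.61 for fibroblast markers. The part of these cells in the differences was not tested, and in bulk RNA fewer cells of a type and less RNA per cell cannot be told apart.

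For several genes the more upstream probe on a transcript (5′ probe) gave another answer with DSS than the more downstream one (3′ probe). The 5′ probe of Hspa1a, an inducible heat shock protein 70 gene, read 8.37, 7.32, 7.41 and 7.31 in DSS_WT and 10.46, 9.89, 9.95 and 10.04 in DSS_KO, a difference of 2.48 (adjusted p = 0.026). It varied widely in Naive_WT, at 9.98, 8.47, 10.77 and 6.55, and read 9.67, 8.93, 9.61 and 8.46 in Naive_KO, a difference of 0.22. The 3′ probe of Hspa1a read 13.26, 13.26, 13.39 and 13.64 in DSS_WT and 13.27, 13.70, 12.99 and 13.48 in DSS_KO, a difference of -0.03 (adjusted p = 0.95). The same held for its near-identical neighbour Hspa1b, at 2.52 (adjusted p = 0.027) and 0.41 (adjusted p = 0.22), and signals of this pair of genes cannot be told apart with certainty. Of 13 other heat shock genes outside the window, 0 differed at an adjusted p under 0.05 in any comparison by limma (1, 1, 2 and 3 at an unadjusted p under 0.05), at a median of 0.16 with DSS.

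Over the 9 pairs of members' probes that lie at least 1000 bases apart on a transcript, the 5′ probe had the higher fold change in 9 with DSS, by a median 1.03, and in 6 without DSS, by a median 0.15. Among the 9, Rab11b differed by only 0.056 and 0.051 with DSS, and Brd2 gave 2 pairs with 5′ probes close to background. In the comparison of DSS with naive WT mice the 5′ probe had the higher fold change in 0 of 9, by a median -1.12, and in that of DSS with naive Mbd2KO mice in 5 of 9, by a median 0.21. An ATP-binding protein gene, Abcf1, shows the size of this in a single sample: on its overlapping 5′ probes DSS_WT replicate 2 read 4.88 and 5.06, against 7.77 to 9.19 in the other 15 samples, while its 3′ probe read 11.26 there, within the 11.06 to 11.45 of the others. Slc39a7, a zinc transporter, and Vars, a tRNA synthetase, differed by 1.53 and 1.47 with DSS on the 5′ probe (adjusted p = 0.016 and 0.015) and by 0.13 and 0.44 on the 3′ probe.

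**Figure D4:**
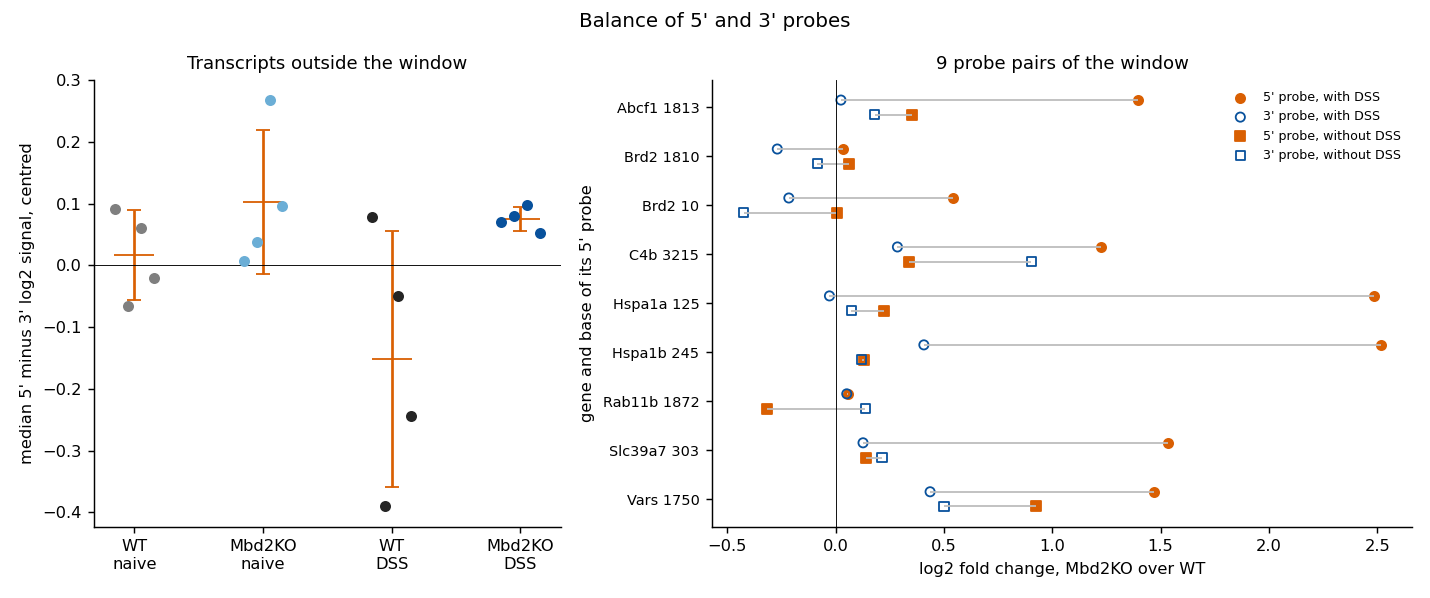
Left, median 5′ minus 3′ log2 signal over transcripts outside the window, centred, in each sample by group with mean and SD (n = 4). Right, log2 fold change of Mbd2KO over WT for 9 probe pairs of the window, 5′ probe filled and 3′ probe open, with DSS (circles) and without (squares), labelled by gene and by the base of the transcript at which the 5′ probe starts; with DSS all 5′ probes lie to the right of their 3′ probes.

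The C4b calls with DSS also lay on upstream probes. Without DSS the order of C4b was reversed, at 0.34 on an upstream probe and 0.90 on the downstream one. The part of the 5′ to 3′ balance in these calls was not tested. A pair of dim C4b probes that share 46 bases were each higher by 1.23 with DSS (adjusted p = 0.0019 and 0.0054). They were detected on all 5 DSS_KO arrays but on 1 and 2 of 5 DSS_WT arrays. The size of the difference is thus set against values mostly at background. The DSS_KO arrays alone sufficed for the detection limit, so the p-values of these dim probes are not free of that selection. The third C4b probe, at base 5236 of the transcript against 3215, was detected on all 18 arrays and differed by 0.28 (SE 0.27, adjusted p = 0.59). C4b and C4a are near copies, and the C4a probes differed by 0.25 and 0.23 with DSS (adjusted p = 0.58 and 0.64). With the 5′ to 3′ measure as a covariate, an alternative chosen after seeing the data, limma called 0 of the 142 probes (31 at an unadjusted p under 0.05) and 1 of the 36 H2-, Tap and Psm probes with DSS, against 8 of all probes. The fold changes with that covariate were 2.36 for Ubd (adjusted p = 0.064), 2.02 for C2 (adjusted p = 0.063) and 1.66 for Btnl2 (adjusted p = 0.031), and 0.90 and 0.89 for the dim C4b probes (adjusted p = 0.052 and 0.13). Without DSS, C2 stayed called with it (2.22, adjusted p = 0.0053), Btnl2 had an adjusted p of 0.0078 with Naive_WT under detection, and Trim40, at 0.98 (adjusted p = 0.0057), came under the fold limit.

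The effect of DSS was compared within each genotype. In WT mice, 10 of the 136 probes were called, all higher with DSS (7.35%), against 1.74% of all tested probes, 1.34% higher and 0.401% lower. In Mbd2KO mice 3 were higher and 2 lower (3.68%), against 1.72%, 1.07% higher and 0.647% lower. At an adjusted p under 0.05, 25 differed in WT (18.4%), 21 higher and 4 lower, against 10.5% of all, 5.71% higher and 4.75% lower. In Mbd2KO it was 21 (15.4%), 19 higher and 2 lower, against 9.42%, 4.9% higher and 4.52% lower. Samples with and without DSS did not overlap for 39 of the 136 probes in WT (28.7%), 29 higher and 10 lower, against 3723 of all 21938, 8.87% higher and 8.1% lower, and for 34 in Mbd2KO (25.0%), 29 higher and 5 lower, against 15.9%, 7.63% higher and 8.29% lower. The called genes were C4a, C4b, Tnf, Aif1, Trim40 and Trim15 in WT, and C4a, Aif1, Ppp1r18 and Ly6g6e in Mbd2KO. Of the H2-, Tap and Psm probes, 3 of 36 were called in WT and 0 in Mbd2KO by limma, with 12 and 11 at an unadjusted p under 0.05.

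In WT mice a C4a probe had the largest rise of the 136 probes, and its near copy C4b rose by 1.40 on its brightest probe (adjusted p = 0.0039). On the C4a probe with the larger change in WT, log2 signal was 6.87, 7.78, 7.71 and 7.22 in Naive_WT and 8.65, 9.36, 9.65 and 9.24 in DSS_WT, without overlap, a rise of 1.83 (SE 0.24, 3.56-fold, adjusted p = 0.00044). In Mbd2KO it was 9.07, 8.29, 8.32 and 8.10 without DSS and 9.40, 9.22, 9.50 and 9.68 with it, a difference of 1.01 (adjusted p = 0.015). The other C4a probe rose by 1.75 in WT (adjusted p = 0.00046) and by 1.28 in Mbd2KO (adjusted p = 0.0033), called in both. Beside this, 6 fibroblast markers were higher with DSS by a median of 0.90 in WT, 2 of them called, and by 0.46 in Mbd2KO, where limma called 0 (2 at an unadjusted p under 0.05), and their part in the C4a rise was not tested. Naive_KO stood between, higher than Naive_WT by 1.05 (adjusted p = 0.020). Factor B, which serves the alternative pathway, went the other way in WT: Cfb differed by -0.63 with DSS (adjusted p = 0.011), and in Mbd2KO the difference was -0.18 (adjusted p = 0.48). Of 10 complement genes outside the window, 6 were higher with DSS in WT and 7 in Mbd2KO at an adjusted p under 0.05, against 5.71% and 4.9% of all tested probes. Among them were C3, by 1.75 in WT (adjusted p = 0.0021), and the C1q chains. In the same comparisons 7 and 4 of 8 myeloid markers were called, all higher with DSS, and their part in the complement rises was not tested.

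Tnf and Aif1 were higher with DSS in both genotypes, Tnf called in WT alone. Tnf was higher with DSS by 1.21 in WT (adjusted p = 0.00089) and by 0.92 in Mbd2KO (adjusted p = 0.0062), with 9.18, 9.34, 9.44 and 9.49 in DSS_WT and 10.00, 10.36, 9.58 and 10.25 in DSS_KO. Aif1, a calcium-binding protein of macrophages also known as Iba1, rose by 1.06 in WT and 1.19 in Mbd2KO on 1 probe (adjusted p = 0.0036 and 0.0020) and differed by 1.47 and 1.40 on the other (adjusted p = 0.0088 and 0.012). On the first it read 5.19, 5.10, 5.67 and 5.06 in Naive_WT and 5.80, 6.62, 6.55 and 6.30 in DSS_WT, without overlap. The myosin gene Myo1f, detected on 0 of 8 naive arrays and on 8 of 10 arrays with DSS, was at least 1.27-fold higher in WT and 1.22-fold in Mbd2KO (adjusted p = 0.0066 and 0.0037), bounds set as for Btnl2, with group means of 4.57 and 5.24 and of 4.52 and 5.27. It passed the detection limit through the DSS groups alone. Beside these, the mean log2 signal of 10 myeloid markers rose from 6.06 to 6.62 in Naive_WT to 7.25 to 8.02 in DSS_WT, and from 6.26 to 7.14 in Naive_KO to 7.82 to 7.91 in DSS_KO, although the sort left out F4/80-positive cells. Of 8 tested myeloid markers, 7 and 4 were called in WT and Mbd2KO, and their part in the members' rise was not tested.

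The TRIM genes Trim40 and Trim15 rose with DSS in WT. Trim40 went from a mean of 6.97 ± 0.26 (SD, n = 4) in Naive_WT to 8.46 ± 0.19 in DSS_WT, by 1.48 (SE 0.17, adjusted p = 0.00025), and was higher by 0.91 in Mbd2KO (adjusted p = 0.0034). Trim15 rose by 1.07 in WT (adjusted p = 0.0035), from 9.36 to 10.13 in Naive_WT to 10.43 to 10.96 in DSS_WT, and was higher by 0.85 in Mbd2KO (adjusted p = 0.014). Its second probe was higher by 0.77 in WT (adjusted p = 0.059). Of the other TRIM and RING genes, Trim10 was detected on no naive array and on 3 of 5 arrays of each DSS group, through which it passed the detection limit, and this leaves a bound of at least 1.03-fold in WT and none in Mbd2KO. The 9 epithelial markers ran from -0.54 to 0.26 in WT, with 1 lower at an adjusted p under 0.05, and from -0.30 to 0.23 in Mbd2KO.

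Ubd was higher with DSS by 2.04 in Mbd2KO (adjusted p = 0.012) and by 1.04 in WT (adjusted p = 0.17), neither called. The first was called in 6 of 24 alternatives, among them all 18 arrays separate, at 2.19 (adjusted p = 0.0029). Ier3, an immediate early gene that lies next to Flot1, was higher by 0.78 in WT (adjusted p = 0.00061) and 0.38 in Mbd2KO (adjusted p = 0.043), under the fold limit. Ppp1r18, a phosphatase-binding protein gene, rose by 1.23 in Mbd2KO (adjusted p = 0.0029) and differed by 0.95 in WT (adjusted p = 0.012). Ppp1r10, which holds protein phosphatase 1 in the nucleus, was higher in WT by 0.84 and 0.62 on its 2 probes (adjusted p = 0.0046 and 0.011) and by 0.14 and 0.04 in Mbd2KO (adjusted p = 0.65 and 0.91).

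Ly6g6e was the 1 called gene that fell. On the probe with the higher signal it read 9.47, 9.73, 9.35 and 9.18 in Naive_KO and 8.19, 7.82, 8.98 and 7.93 in DSS_KO, groups that did not overlap, and fell by 1.20 (SE 0.21, adjusted p = 0.0026). The second probe fell by 1.32 (adjusted p = 0.0029), with DSS_KO replicate 7 at 7.78 inside the range of Naive_KO. In WT the differences were -0.57 and -0.67 (adjusted p = 0.098 and 0.081). Ly6g6c and Ly6g6d, of the same cluster, differed by -0.60 and -0.57 in Mbd2KO (adjusted p = 0.077 and 0.063).

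**Figure D5:**
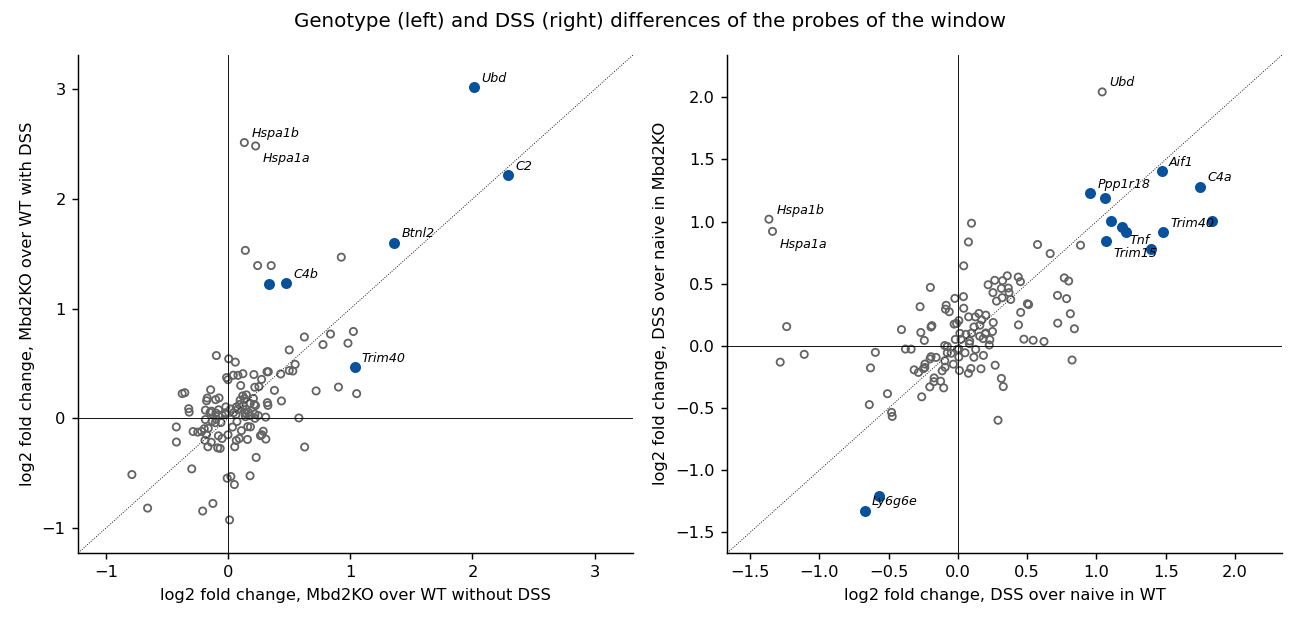
Log2 fold changes of the 136 probes that are no MHC gene; left, Mbd2KO over WT without DSS (x) against with DSS (y), right, DSS over naive in WT (x) against Mbd2KO (y). Filled points were called in at least 1 of the 2 comparisons of a panel and the dotted line marks equal values; Ubd, C2 and Btnl2 stand high on both axes on the left, the 5′ probes of Hspa1a and Hspa1b on the y axis alone.

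Whether DSS changed the genotype difference was tested as an interaction. Limma called 0 of the 142 probes and 0 of all 21938, and 23 of the 142 and 2339 of all had an unadjusted p under 0.05. An effect past the limit in 1 condition and short of it in the other, as for Ubd and Trim40, is therefore not shown to differ between conditions. The genotype differences of the 136 probes with and without DSS, which come from different samples, had a Pearson r of 0.62 across probes (Spearman's rho 0.52), and 0.44 without the probes of Ubd, C2 and Btnl2. Probes of 1 gene share a transcript and probes are not independent, so this r is a description.

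By role, genotype differences were counted over the 93 genes, each by its brightest probe. Of all 21938 tested probes, 4862 had an unadjusted p under 0.05 with DSS and 5010 without, and the shares among housekeeping and chromatin genes lay near or under these. Among 4 complement genes 1 was called with DSS and 1 without (C2 in both), against 0.862% and 0.656% of all tested probes. Among 26 housekeeping and metabolic genes 0 were called by limma in either comparison, 5 and 4 had an unadjusted p under 0.05, and the fold changes with DSS ran from -0.46 to 0.57. Among 17 chromatin and transcription genes limma called 0 (4 and 3 unadjusted), and the range with DSS was -0.36 to 0.42. Among 9 Ly6 and class III surface genes limma called 0 (3 and 3 unadjusted), and 2 were lower with DSS and 1 without at an adjusted p under 0.05, against 3.17% and 2.77% of all tested probes. Stk19 was the chromatin gene past 0.05, higher by 0.42 with DSS (adjusted p = 0.042), and without DSS it differed by 0.33 on the same probe (adjusted p = 0.11).

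For comparison, genes of the interferon-gamma response that lie outside the window were listed as 18 entries, among which Ciita stands under 2 symbols. At an adjusted p under 0.05, 9 were higher in Mbd2KO with DSS and 11 without, against 2.46% and 2.43% of all tested probes. By the same limit 0 were lower, and the medians of the list were 0.93 and 1.04. Ciita, the activator of class II genes, was higher by 3.47 and 2.95 (adjusted p = 0.00076 and 0.0013), and B2m, the light chain of class I molecules, by 0.83 and 0.96 (adjusted p = 0.0040 and 0.0014). Of 17 genes of TNF signalling outside the window, limma called 0 for genotype (4 unadjusted in either comparison). An adjusted p under 0.05 was reached by 0 with DSS and 2 without, against 5.63% and 5.19% of all tested probes.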

How the data were processed

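RNA of 16 samples was hybridised to 18 single-colour Illumina arrays. The deposited table held, per the file headers, the mean bead intensity of each probe without normalisation and a detection p-value against negative controls. The submitters' processing notes name lumi and limma, and how these made the table is not given in the sources used here. Bead counts and bead errors (72 columns) were not used. Intensities were background-corrected with normexp on 936 negative controls, quantile-normalised and put on the log2 scale (neqc of limma 3.58.1, R 4.3.3, offset 16). Arrays labelled 4R and 5R were taken as repeats of DSS_WT replicate 4 and DSS_KO replicate 5. The labels do not say what R stands for, while the study's text gives 5 biological replicates per genotype for these cells with DSS, which goes against this reading. The n of 4 and the p-values with DSS rest on it, and all 18 arrays as separate samples are an alternative. Each differed from its namesake by less than other pairs of the group did (SD of differences 0.194 and 0.236, against at least 0.334 and 0.287), and each pair was averaged. A model with 4 group means was fitted by limma to 21938 probes detected on at least 4 arrays, with Benjamini-Hochberg adjustment over all of them. Scripts were tested on simulated data.

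The members, the gene lists and the marker lists were chosen with earlier results of these data known. Genes were named where a probe was called (at most 10 rises and 10 falls per comparison), where they belonged to the complement, TNF, heat shock, ubiquitin-like or TRIM and RING lists, or where they lay next to a called presentation gene. BC051142, Btnl7-ps, Notch4, Ehmt2, Stk19, Mpig6b, Ddr1, Tnxb, Myo1f, Ppp1r10, Slc39a7, Vars, Abcf1, Rab11b, Ly6g6c and Ly6g6d were named after their values were seen. Symbols were updated through RefSeq by Entrez number (140 of 142 members). Nothing ties a sample to single animals, so p-values measure the spread between these samples. The number of arrays limits the precision. Alternatives are the background correction, scaling, detection filter, repeat arrays, samples in the fit, array weights, threshold, window, probes per gene, each replicate left out, and 2 chosen after seeing the data: the 5′ to 3′ measure as a covariate, and leaving out the MHC genes under other names. One item is not reported here.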

Additional observations from a re-analysis of the deposited data

Results flagged for a closer look

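In 5 of 180 pairs of a named probe and a group (2.78%), 1 sample stood far from the other 3, by Dixon's ratio of its gap to the range of the group. Chance flags about 1 in 20 groups. Both Tnf probes were high in Naive_WT replicate 9, at 8.73 against 7.55 to 7.68 (ratio 0.89) and 8.70 against 7.92 to 8.02 (ratio 0.878). Ring1 was low in Naive_KO replicate 15, at 7.41 against 8.36 to 8.52 (ratio 0.857), and in DSS_WT replicate 1, at 8.05 against 8.32 to 8.33 (ratio 0.934). Rgl2, a neighbour of Tapbp, was high in DSS_WT replicate 2, at 10.13 against 9.99 to 10.02 (ratio 0.833).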

How the results depend on the processing

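No paired analysis was possible because the labels number the samples straight through all groups. The slide as a block was not run, since the headers name no slide, and the fit on the groups of a contrast alone does not apply to the interaction, for which limma called 0 members under every alternative. Of 180 values of a named probe in a comparison, 30 were called and 40 turned sign under at least 1 alternative, among them Cfb for DSS in Mbd2KO and the 3′ probe of Hspa1a for genotype with DSS, and 0 of these 40 were called. The largest of the 40 was 0.27 in size. Counts below are called probes, members first (10 with DSS and 5 without for genotype, 10 in WT and 5 in Mbd2KO for DSS), then the H2-, Tap and Psm probes (18, 16, 3 and 0). Without background correction, 6 and 2 members were called for genotype with and without DSS and 2 and 1 for DSS in WT and Mbd2KO, and 0 presentation probes for DSS in WT. Without the detection filter the members' counts were 6, 3 and 6 in the first 3 comparisons and those of presentation probes 6, 9 and 0. With median scaling, which moves the median of all probes by 0.24 and 0.23 for DSS in WT and Mbd2KO, 18 and 16 members and 10 and 3 presentation probes were called for DSS. With all 18 arrays separate, 9 members were called for DSS in Mbd2KO, and 9 and 1 presentation probes for DSS in WT and Mbd2KO. On the groups of the contrast alone, 0 members and 3 presentation probes were called for genotype without DSS, 9 presentation probes for DSS in WT and 1 member for DSS in Mbd2KO. With array weights, 11 members were called for DSS in Mbd2KO, and 7 and 1 presentation probes for DSS in WT and Mbd2KO. With the 5′ to 3′ measure as a covariate (chosen after seeing the data), 0 members and 1 presentation probe were called for genotype with DSS, 10 presentation probes without DSS, and 6 and 8 members for DSS in WT and Mbd2KO. At an adjusted p under 0.05, whatever the fold change, members numbered 24, 15, 25 and 21, and presentation probes 28 and 23 for genotype and 10 and 1 for DSS. With 1 probe per gene, 7 and 4 members were called for genotype and 6 and 3 for DSS. Without the MHC genes under other names (chosen after seeing the data), 5 and 3 were called for genotype. The cause of these shifts was not tested.

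Leaving out each replicate gave 3 to 13 members for genotype with DSS, 1 to 8 without, 4 to 10 for DSS in WT, 1 to 11 in Mbd2KO and 0 to 0 for the interaction, and 3 to 21, 9 to 21, 0 to 8, 0 to 3 and 0 to 0 presentation probes. Members for genotype with DSS fell to 3 without DSS_WT replicate 2, 5 without DSS_WT replicate 4, 3 without DSS_KO replicate 5 and 6 without DSS_KO replicate 8. Without DSS they were 1 without Naive_WT replicate 10, 2, 3 and 8 without Naive_KO replicates 13, 15 and 16. For DSS in WT they were 4 and 5 without DSS_WT replicates 3 and 4 and 6 and 5 without Naive_WT replicates 9 and 10, and in Mbd2KO 2 and 1 without DSS_KO replicates 5 and 8 and 11 and 2 without Naive_KO replicates 13 and 14. Genotype differences with DSS were called in 21 of 24 alternatives for Ubd (log2 fold change 2.26 to 3.26), 18 of 24 for C2 (1.69 to 2.47) and 21 of 23 for Btnl2 (0.63 to 1.76). Without DSS, Trim40 was called in 16 of 24 (0.66 to 1.16) and Btnl2, under detection in Naive_WT, in 15 of 23. The median of the 136 probes that are no MHC gene stayed between -0.02 and 0.12 with DSS and between 0.01 and 0.11 without over the alternatives.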

Other observations

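The detection limit of 4 arrays left out 66 of the 208 probes that met the position and symbol rule, 50 of which were detected on no array, and 13 of the genes left out are olfactory receptors. Just inside the limit stood the olfactory receptor gene Olfr91 (4 arrays), Atat1 and Kank3 (5 arrays each), and just outside it the meiotic gene Msh5 (3 arrays) and Apom, Olfr90, Olfr96 and Olfr100 (2 arrays each). Mean log2 signals on the 2 sides were 4.83 for Olfr91 and 4.73 for Msh5.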
